A study of Homo sapiens with 9 samples.

Results

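The proteasome is the large protease that degrades proteins tagged with ubiquitin. Its 20S core is a barrel of stacked alpha and beta rings, with the proteolytic sites on the inner face of the beta rings, and its 19S particle, made of a base with a ring of ATPases and of a lid, binds, unfolds and feeds in the tagged protein. In cells exposed to interferon, inducible catalytic subunits take the place of the constitutive ones in newly built cores (the immunoproteasome), and the activator made of PSME1 and PSME2 can bind the core in place of the 19S particle, which changes the peptides offered for antigen presentation. Because the subunits work in fixed proportions, their genes are largely regulated together, and the transcription factor NFE2L1 raises many of them together when proteolysis falls short.

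The genes described here are those whose symbol is PSMA to PSMG followed by a number, together with ADRM1, a ubiquitin receptor of the 19S particle, and POMP, which helps to assemble the core. Of 31080 reference genes, or reference genes joined on 1 row, 47 met this rule, and all 47 were among the 21048 genes expressed enough to be tested. They lie on 17 chromosomes. The symbols PSMA8, PSMB11 and PSMD9 were not analysed here.

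RNA came from A549, an established human lung cancer cell line. The cells were transfected with siRNA for 48 h, either a scrambled sequence, siCyclin K#1 or siCyclin K#2, and 3 libraries were sequenced for each, 9 in all. Cyclin K, encoded by CCNK, is the cyclin that activates CDK12 and CDK13, the kinases that act on elongating RNA polymerase II. The design text calls the 3 samples of a group independent and gives no more on their origin, so the p-values measure the spread between these samples, which may be technical. The authors' values are FPKM, fragments scaled to the length of a gene and to the depth of its library, so that the levels of different genes can be set side by side.

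The depth recovered from the low values was 31334900 to 33771500 reads per library. CCNK stood at 6.90, 7.06 and 7.10 FPKM with scrambled siRNA, at 0.891, 0.816 and 0.720 with siCyclin K#1 and at 0.809, 0.920 and 0.802 with siCyclin K#2. Its mean was therefore 11.5% of the scrambled mean with siCyclin K#1 and 12.0% with siCyclin K#2, and all 6 libraries lay below the 3 scrambled ones. The epithelial keratins KRT8 and KRT18 stood between 49.7 and 105 and between 69.8 and 91.0 FPKM over the 9 libraries, while EPCAM and KRT19 were near 0. The common leukocyte marker PTPRC, which would mark cells that hold the immunoproteasome, did not exceed 0.00685 FPKM in any library. Of the 8 leukocyte markers listed, 5 had a row, and their summed FPKM was 30.9 to 31.8 in the scrambled libraries, 31.9 to 34.5 after siCyclin K#1 and 37.9 to 39.6 after siCyclin K#2, nearly all of it from CD68, a lysosomal protein that other cells make too.

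Among the falls called over both siRNAs, those of PSMB10, PSMB9 and PSME2 were the largest. Their promoters are shown with those of PSMB8, the third inducible catalytic subunit, and of PSME1, the partner of PSME2. They are printed from 250 bases before the RefSeq start site to 30 bases after it, on the strand of the gene, in GRCh38.p14. Capitals mark a match to the core of the interferon-stimulated response element (ISRE), through which interferon regulatory factors act: GAAA, any 2 bases, and GAAA again, on either strand. PSMB10 is at chr16:67936821-67937100 on the minus strand, PSMB9 at chr6:32853942-32854221 on the plus strand, PSMB8 (1 of its 2 listed promoters) at chr6:32844018-32844297 on the minus strand, PSME1 at chr14:24135944-24136223 on the plus strand and PSME2 at chr14:24146581-24146860 on the minus strand.
PSMB10: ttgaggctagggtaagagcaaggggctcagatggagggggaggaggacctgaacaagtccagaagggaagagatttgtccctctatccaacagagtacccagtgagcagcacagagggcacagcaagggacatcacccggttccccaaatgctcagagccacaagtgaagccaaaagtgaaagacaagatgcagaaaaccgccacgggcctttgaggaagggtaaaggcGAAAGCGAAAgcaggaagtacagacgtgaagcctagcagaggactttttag
PSMB9: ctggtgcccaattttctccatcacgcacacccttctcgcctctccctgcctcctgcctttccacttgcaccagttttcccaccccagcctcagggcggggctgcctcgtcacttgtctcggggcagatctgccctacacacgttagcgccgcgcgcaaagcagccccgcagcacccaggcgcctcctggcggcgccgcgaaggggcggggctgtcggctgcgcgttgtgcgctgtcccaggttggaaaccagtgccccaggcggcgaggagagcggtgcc
PSMB8: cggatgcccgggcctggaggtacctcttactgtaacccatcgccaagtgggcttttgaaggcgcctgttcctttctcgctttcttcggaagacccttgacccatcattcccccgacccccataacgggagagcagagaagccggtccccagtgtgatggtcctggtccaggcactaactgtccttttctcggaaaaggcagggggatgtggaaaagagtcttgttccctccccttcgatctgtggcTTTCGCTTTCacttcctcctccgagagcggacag
PSME1: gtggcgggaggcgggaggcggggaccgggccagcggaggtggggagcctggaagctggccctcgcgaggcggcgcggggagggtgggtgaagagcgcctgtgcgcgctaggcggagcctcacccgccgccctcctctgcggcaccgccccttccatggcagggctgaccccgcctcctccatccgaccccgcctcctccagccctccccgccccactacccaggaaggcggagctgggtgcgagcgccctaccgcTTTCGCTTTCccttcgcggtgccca
PSME2: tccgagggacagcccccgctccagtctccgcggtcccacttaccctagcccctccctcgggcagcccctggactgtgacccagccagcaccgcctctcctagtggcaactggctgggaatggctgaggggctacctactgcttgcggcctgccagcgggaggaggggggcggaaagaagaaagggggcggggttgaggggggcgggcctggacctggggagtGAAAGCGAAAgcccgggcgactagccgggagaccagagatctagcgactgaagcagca
The match began 21 bases before the start site in PSMB10, 4 before it in PSMB8, 28 before it in PSME2 and 5 after it in PSME1. PSMB9 had no match in this window.

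Among all 47 genes, 41 had a promoter in the RefSeq table, and the ISRE core was found in 7 of the 41 (17.1%), against 4.38% of the 27305 genes with a promoter of the same length. Besides the 4 above, these were PSMA4, PSMB4 and PSMG4. TGACNNNGC, the core of the antioxidant response element bound by NFE2L1 and its relatives, was found in 15 of the 41 (36.6%) against 16.1% of all genes, and CCAAT in 20 (48.8%) against 39.7%. Both strands were searched, windows of 300 bases were used, and in PSME1 and PSME2, which hold both of the longer motifs, the matches did not overlap. PSMA4, not printed here, also holds both. Over both siRNAs, limma called 3 of the 7 genes with the ISRE core lower and 1, PSMG4, higher. Of the 15 with TGACNNNGC it called 7 lower and 1 higher, and of the 20 with CCAAT 6 and 2. Of all 47 members, 12 were lower and 6 higher. Over all genes tested, 11.5% were lower and 17% higher. Over genes with a mean of at least 10 FPKM it was 22.5% and 24.6%. The shares called among all genes with each motif are not given here. Whether a motif had a part in these changes was not tested. A match is a string of letters and no proof of binding.

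With scrambled siRNA, the proteasome genes spanned a 200-fold range of FPKM. The lowest was PSMG4, an assembly chaperone, with a mean of 0.887 ± 0.0484 (SD, n = 3), and the highest was PSMB3, a non-catalytic subunit of the beta ring, with 177 ± 3.25, and the median of the 47 means was 30.3. In the alpha ring, whose subunits are present in equal number in the assembled core, the means ran from 12.4 for PSMA6 to 119 for PSMA7, and in the ATPase ring from 12.0 for PSMC6 to 106 for PSMC4. The constitutive catalytic subunits were among the high ones, with 62.0 ± 11.3 for PSMB5, the chymotrypsin-like site, 66.7 ± 0.620 for PSMB6, the caspase-like site, and 93.0 ± 7.89 for PSMB7, the trypsin-like site. PSMB5 and PSMB6 did not differ beyond the spread of PSMB5. Their inducible counterparts PSMB8, PSMB9 and PSMB10 were at 13.1 ± 0.637, 7.62 ± 0.473 and 4.68 ± 0.310.

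**Figure D1:**
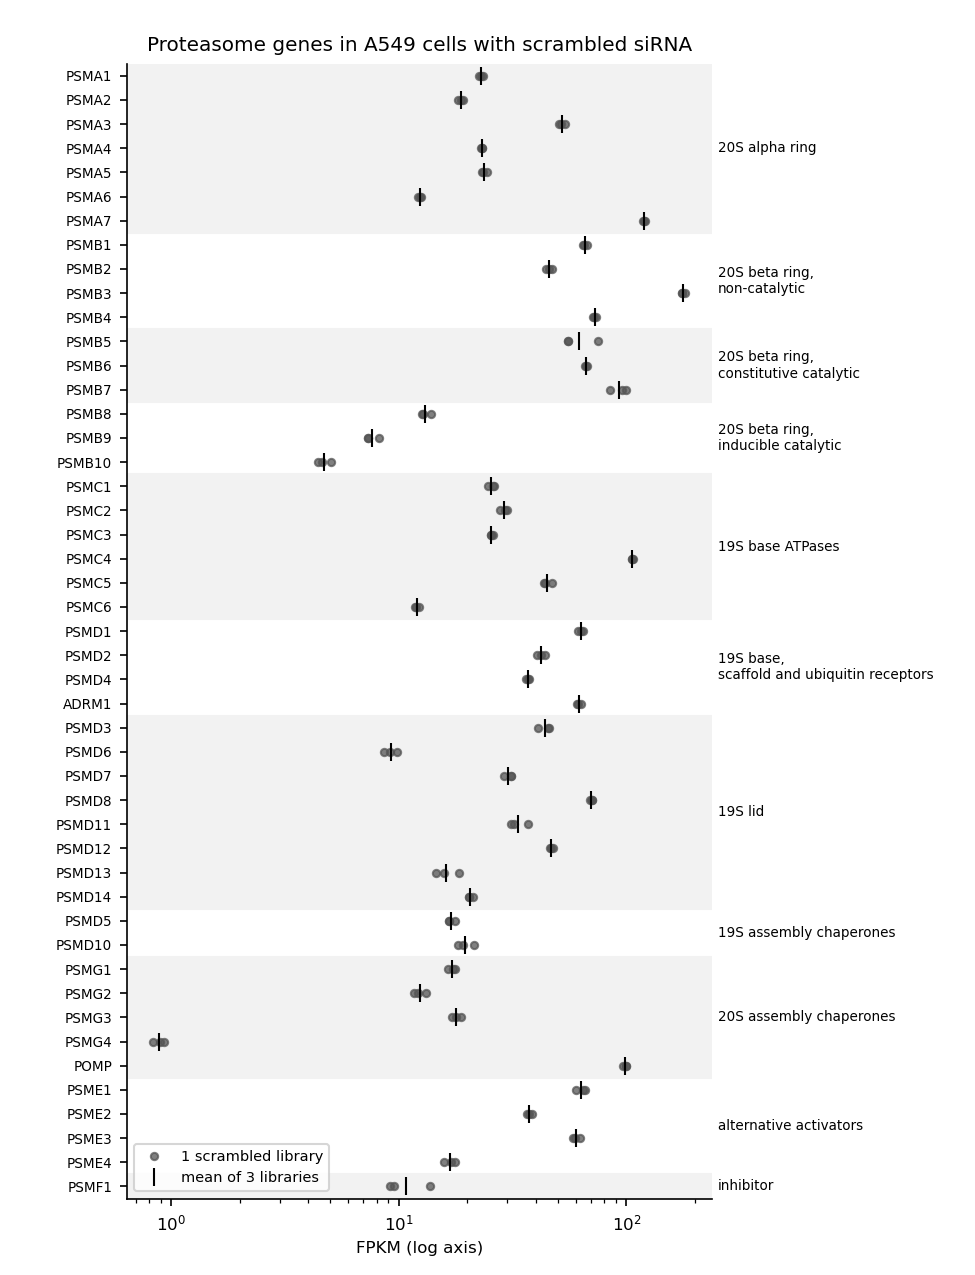
FPKM of the 47 proteasome genes with scrambled siRNA (log axis), grouped by their place in the complex, with a point for each of the 3 libraries and a bar for their mean. Means run from 0.887 for PSMG4 to 177 for PSMB3, and the 3 inducible catalytic subunits lie below the 3 constitutive ones.

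Does depletion of Cyclin K change the mRNA of the proteasome as a whole? Over both siRNAs, 6 libraries against 3, 18 of the 47 genes had an adjusted p under 0.05 in limma. The 6 that rose were PSMC3, PSMC6 (an ATPase), PSMD4, PSMD7, PSMG4 and PSME4, and the 12 that fell were PSMA2, PSMA3, PSMB2, PSMB3, PSMB9, PSMB10, PSMC4, PSMC5, PSMD1, PSMG3, PSME1 and PSME2. Higher calls came to 12.8% of the members against 17% of all genes tested, and lower calls to 25.5% against 11.5%. Most members are expressed well, with 43 of 47 at a mean over 10 FPKM, and among the 3757 genes with at least that mean 24.6% were higher and 22.5% lower. With the mean of the siRNA contrasts in the fit of 3 groups in place of 1 group of 6, 30 members were called, 9 higher (19.1%, against 24.9% of all genes tested and 34.8% of well expressed genes) and 21 lower (44.7%, against 18.2% and 36.2%). This added PSMB1, PSMB6 and PSMD8 to the higher ones and PSMA5, PSMA7, PSMB4, PSMB7, PSMD2, PSMD6, PSMD12, PSME3 and POMP to the lower ones. Set against the well expressed genes in the fit of 6 against 3, the members had a like share of lower calls and a smaller share of higher ones. Because RNA was taken from whole cultures, less RNA per cell and fewer cells that make it cannot be told apart.

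The changes were mostly small. The median log2 fold change of the 47 members was −0.08, against 0.06 over all genes tested and −0.01 over genes with a mean of at least 10 FPKM. Changes of the members had a median size of 0.17 on the log2 scale, against 0.31 over the well expressed genes. For 39 members the change was under 0.5, and PSMB10, PSMC3 and PSME3 were the ones beyond 1. No member passed the rule of the study's methods, a fold change over 3 with an unadjusted p under 0.01, which 2.29% of all genes passed, while 24 members had an unadjusted p under 0.05 and 18 an adjusted one. For the 24, no share over all genes is given here. The groups did not overlap in 26 of the 47 genes (55.3%), 8 of them higher and 18 lower in all 6 libraries, against 32.6% of all genes tested. That share was not computed over the well expressed genes, to which most members belong. The shares are therefore not at like levels, and no excess of the members can be read from them. The exact two-sided permutation p was 0.0119 for PSMB10, PSMB9, PSMC3, PSMD4, PSMG4, PSME1, PSME2 and PSME4, the smallest that the 84 splits of 9 libraries allow here, and 0.0238 for PSMB2 and PSMD7. These genes were named partly because their groups did not overlap. That choice all but fixed a p this small, so it adds no support. Other members reached 0.0119 too, among them PSMB6 and PSMD5, which limma did not call.

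**Figure D2:**
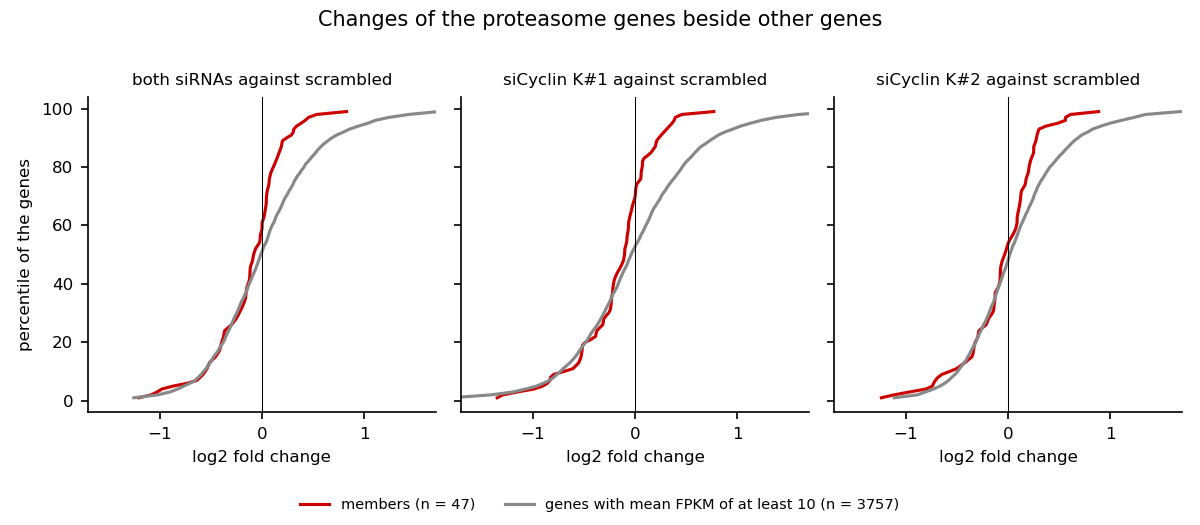
Log2 fold change (horizontal) at each percentile (vertical) of the 47 proteasome genes in red and of the 3757 genes with a mean of at least 10 FPKM in grey, for both siRNAs together and for each. The red line is the steeper one above 0, as few members rose by a large amount, and in the lower part the lines run closer together, least so for siCyclin K#1.

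With siCyclin K#1 alone, 30 members were called. Of these 8 rose (17.0%, against 26.8% of all genes tested and 34.1% of well expressed genes) and 22 fell (46.8%, against 18.1% and 38.5%). With siCyclin K#2, 28 were called, of which 12 rose (25.5%, against 19.8% and 33.7%) and 16 fell (34.0%, against 15.2% and 29.2%). The fold-change rule was met by no member with either siRNA, against 4.67% and 1.94% of all genes tested. At an unadjusted p under 0.05 in limma, without a fold limit, it was 34 and 31 members. No share over all genes at this p is given here, so no excess can be read from these counts. The comparisons of the single siRNAs with scrambled siRNA share the scrambled libraries. Relative to a scaling of the libraries that sets the median of all genes near 0, which moved that median by −0.10 (median ratios) or −0.12 (quantiles) for siCyclin K#1, the higher call of PSMD8 (lost with median ratios) and the lower call of PSMA7 (lost with quantiles) with siCyclin K#1 changed sign, and median ratios gave 4 higher and 29 lower calls with siCyclin K#1 in place of 8 and 22.

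**Figure D3:**
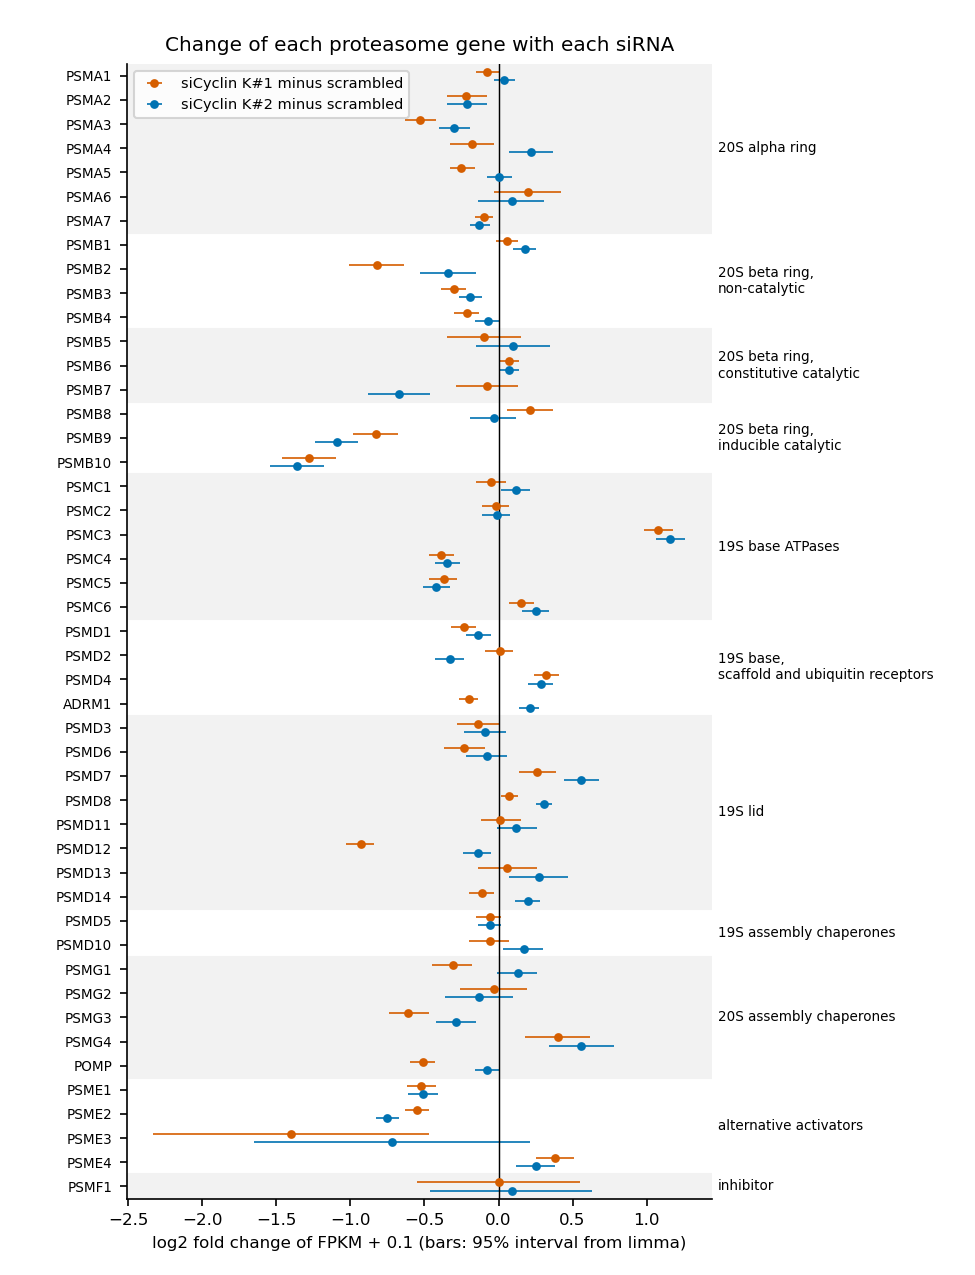
Log2 fold change of FPKM + 0.1 with siCyclin K#1 (orange) and siCyclin K#2 (blue) against scrambled siRNA for each of the 47 genes, grouped by their place in the complex, with 95% intervals from limma. PSMC3 lies near 1.1 with each siRNA, PSMB9 and PSMB10 lie at −0.83 or lower, and PSMD12, PSMB7 and POMP differ between the siRNAs.

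The constitutive catalytic subunits showed no call over both siRNAs. PSMB5 stood at 75.0, 55.5 and 55.4 FPKM with scrambled siRNA, at 62.2, 55.1 and 54.8 with siCyclin K#1 and at 66.0, 64.7 and 66.8 with siCyclin K#2. The groups overlapped, and the log2 fold change over both was 0.00 with a 95% interval from −0.25 to 0.25. Without scrambled library 1, the highest of its group, PSMB5 was called higher with siCyclin K#2 (0.25 in place of 0.10, limma adjusted p = 0.013) and between the siRNAs (−0.20, adjusted p = 0.022). PSMB6 was at 67.2, 66.0 and 66.7, at 68.6, 69.6 and 72.4 and at 71.4, 69.7 and 69.3 in the same order, a difference of 0.07 with an interval from −0.02 to 0.17. All 6 siCyclin K libraries lay above the scrambled ones, but the limma test did not call it (adjusted p = 0.24).

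PSMB7 stood apart from these. Its values were 99.6, 95.2 and 84.3 FPKM in the scrambled libraries, 77.7, 92.6 and 93.9 after siCyclin K#1 and 53.7, 60.7 and 60.8 after siCyclin K#2. The libraries of siCyclin K#2 lay below all others, and those of siCyclin K#1 overlapped with the scrambled ones. With siCyclin K#2 PSMB7 fell by 0.67 on the log2 scale (SE 0.09, limma adjusted p = 0.00049), to 62.8% of the scrambled mean. With siCyclin K#1 the difference was −0.08 (interval from −0.29 to 0.13). The direct test between the siRNAs gave a difference of 0.59 (SE 0.09, limma adjusted p = 0.0014).

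The inducible subunits did not move as a unit. PSMB10, which replaces PSMB7 in the immunoproteasome, stood at 4.41, 5.02 and 4.61 FPKM with scrambled siRNA, at 1.81, 1.95 and 1.83 with siCyclin K#1 and at 1.85, 1.66 and 1.75 with siCyclin K#2. All 6 siCyclin K libraries lay at or below 1.95 FPKM, and the fall over both was 1.32 on the log2 scale (SE 0.09, limma adjusted p = 7.8e-06). That is 39.8% and 37.5% of the scrambled mean with siCyclin K#1 and siCyclin K#2. The row also holds CTRL, a digestive protease gene, and AC040162.1, whose reads cannot be told apart from those of PSMB10, and it rests on an estimated 102 to 296 reads per library.

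PSMB9, which replaces PSMB6, was at 8.17, 7.36 and 7.33 FPKM with scrambled siRNA, at 4.03, 4.26 and 4.42 with siCyclin K#1 and at 3.54, 3.61 and 3.40 with siCyclin K#2. The siCyclin K libraries lay below the scrambled ones without overlap, and those of siCyclin K#2 below those of siCyclin K#1. It fell by 0.96 (SE 0.10, limma adjusted p = 0.00011), to 55.6% and 46.2% of the scrambled mean. This row also holds PSMB8-AS1, an antisense RNA of the neighbouring gene.

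PSMB8, which replaces PSMB5, stood at 12.8, 12.7 and 13.8 FPKM with scrambled siRNA, at 15.5, 14.4 and 15.6 with siCyclin K#1 and at 14.1, 12.4 and 12.0 with siCyclin K#2. The groups overlapped over both siRNAs, where the difference was 0.09 (interval from −0.13 to 0.31, limma adjusted p = 0.54). With siCyclin K#1 it was higher by 0.21 (SE 0.07, limma adjusted p = 0.033) in a call that was lost with median-ratio scaling (0.09, adjusted p = 0.35). It was also lost without scrambled library 1 or 2, or siCyclin K#1 library 1 or 3 (adjusted p = 0.091 to 0.099). With siCyclin K#2 the difference was −0.03. Some 20.6% of its exon bases lie opposite exons of PSMB8-AS1 or PSMB9, and whether the counting used strand is not given in the sources used here.

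Set as a share of its constitutive counterpart in the same library, PSMB9 came to 12.1%, 11.2% and 11.0% of PSMB6 in the scrambled libraries, to 5.87%, 6.13% and 6.10% after siCyclin K#1 and to 4.96%, 5.19% and 4.90% after siCyclin K#2. PSMB10 came to 5.06% ± 0.555 (SD, n = 3) of PSMB7 in the scrambled libraries, to 2.13% ± 0.190 after siCyclin K#1 and to 3.03% ± 0.376 after siCyclin K#2. The last of these is the higher of the siCyclin K values although PSMB10 itself was not, as PSMB7 was lower there. PSMB8 came to 21.6% ± 4.10 of PSMB5, to 26.6% ± 1.81 and to 19.5% ± 1.71. After siCyclin K#1 the values ran from 25.0% to 28.5%, at or above the highest scrambled one, and after siCyclin K#2 from 17.9% to 21.3%, within the scrambled range of 17.0% to 25.0%.

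PSMB8 and PSMB9 lie next to the antigen transporter genes TAP1 and TAP2 on chromosome 6. The annotated span of PSMB9 runs on the plus strand from 32844136 to 32859585 of GRCh38. TAP1 lies inside this span on the minus strand, from 32845209 to 32853978. The RefSeq start site of PSMB9, used for its printed promoter, lies past the upper end of TAP1, however. From that start site the genes lie head to head. The printed PSMB9 window, from 32853942 to 32854221, overlaps the end at which TAP1 begins. TAP1 stood at 8.99, 9.10 and 9.32 FPKM with scrambled siRNA, at 3.09, 2.91 and 3.05 with siCyclin K#1 and at 8.63, 8.83 and 8.51 with siCyclin K#2. It fell with siCyclin K#1 by 1.57 (SE 0.05, limma adjusted p = 5.2e-08), and with siCyclin K#2 the difference was −0.08 (interval from −0.18 to 0.03). The direct difference between the siRNAs was −1.49 (SE 0.05, limma adjusted p = 2.7e-07), while for PSMB9 it was 0.26 in the other direction (SE 0.06, limma adjusted p = 0.015), a call lost under both rescalings (adjusted p = 0.070 and 0.069) and without siCyclin K#1 or siCyclin K#2 library 3 (0.053 and 0.052). TAP2, at 11.4 ± 0.203 FPKM with scrambled siRNA, was at 8.06 ± 0.416 and 7.97 ± 0.400 (SD, n = 3), a fall of 0.50 over both (limma adjusted p = 0.00031).

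The paired activator fell with each siRNA. PSME1 stood at 59.8, 64.7 and 65.8 FPKM with scrambled siRNA, at 44.3, 44.3 and 44.2 with siCyclin K#1 and at 45.8, 42.6 and 45.4 with siCyclin K#2. PSME2, its partner in the heteromeric ring, was at 37.4, 38.4 and 36.4, at 25.3, 25.5 and 25.7 and at 22.9, 21.5 and 22.3. In neither gene did a siCyclin K library reach the scrambled range. PSME1 fell by 0.51 (SE 0.05, limma adjusted p = 7.6e-05) and PSME2 by 0.65 (SE 0.07, limma adjusted p = 0.00016). Their genes lie 4.39 kb apart on chromosome 14, on opposite strands, and each is on a row of its own. Their summed FPKM was 101 ± 3.13 in the scrambled libraries, 69.8 ± 0.194 after siCyclin K#1 and 66.8 ± 2.45 after siCyclin K#2 (SD, n = 3).

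The other activators went separate ways. PSME4, which forms the single-chain cap PA200, stood at 15.8, 17.6 and 16.9 FPKM with scrambled siRNA, at 22.7, 20.6 and 22.3 with siCyclin K#1 and at 19.7, 19.3 and 20.8 with siCyclin K#2. All 6 libraries were above the scrambled range, a rise of 0.31 (SE 0.07, limma adjusted p = 0.0081). PSME3, the nuclear activator of the same family as PSME1, was named after its values were seen, because its libraries disagree. It stood at 62.7, 59.2 and 58.3 FPKM with scrambled siRNA, at 17.0, 17.0 and 40.1 with siCyclin K#1 and at 20.2, 47.6 and 50.0 with siCyclin K#2. Each siCyclin K group thus held both libraries near 20 and libraries near 40 or above, all below the scrambled ones. The difference over both was −1.06 (interval from −1.91 to −0.21, limma adjusted p = 0.063), and it was called with siCyclin K#1 (−1.40, SE 0.41, limma adjusted p = 0.021) but not with siCyclin K#2 (−0.72, adjusted p = 0.22). Without scrambled library 1 or 2, or siCyclin K#1 library 1 or 2, the adjusted p with siCyclin K#1 was 0.051 to 0.073, and without siCyclin K#2 library 2 or 3 that over both was 0.037 or 0.031. What sets these libraries apart was not tested, and the direct difference between the siRNAs was −0.68 (interval from −1.61 to 0.25). PSMF1, an inhibitor of the core, was at 10.8 ± 2.53 FPKM with scrambled siRNA and differed by 0.04 over both, with all groups overlapping, on a row that also holds C20orf202 and AL031665.1.

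**Figure D4:**
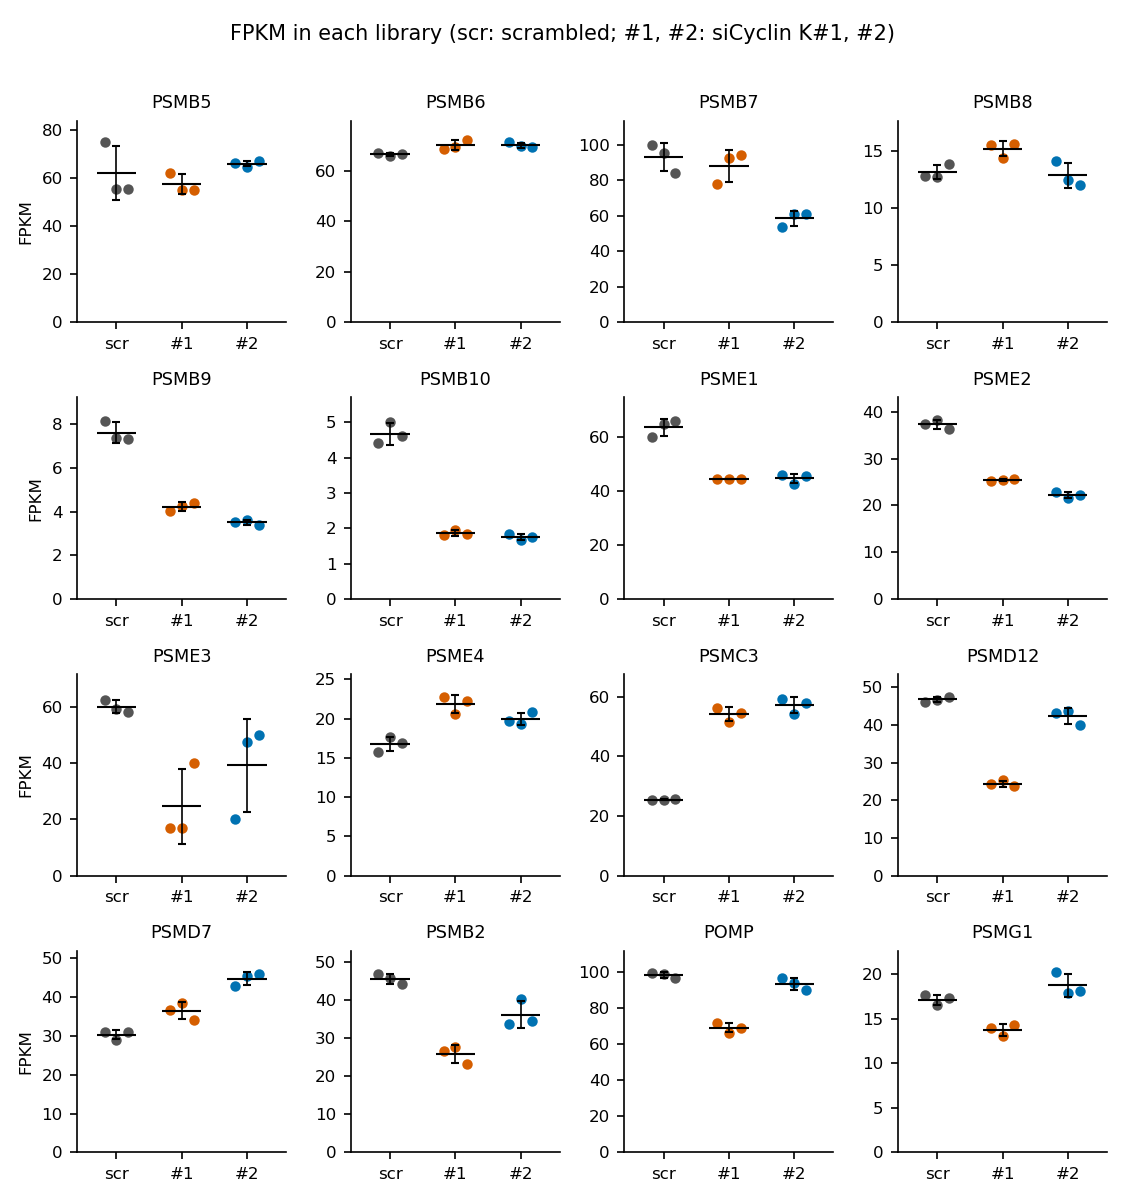
FPKM in each library for 16 proteasome genes, from an axis that starts at 0, with a point for each library and the mean ± SD (n = 3) in black. PSMB9, PSMB10, PSME1 and PSME2 are lower and PSMC3 higher with each siRNA, PSMD12, PSMG1 and POMP are low with siCyclin K#1, PSMB7 is low with siCyclin K#2, and the PSME3 libraries spread within both siCyclin K groups.

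The base of the 19S particle held the largest rise. PSMC3, a subunit of the ATPase ring, stood at 25.4, 25.4 and 25.8 FPKM with scrambled siRNA, at 56.4, 51.6 and 54.6 with siCyclin K#1 and at 59.4, 54.3 and 57.8 with siCyclin K#2. Every siCyclin K library lay at or above 51.6, the means were 2.13-fold and 2.24-fold that of the scrambled libraries, and the log2 rise was 1.12 (SE 0.06, limma adjusted p = 1.3e-06). The rest of the ring did not follow it. PSMC4 and PSMC5 fell by 0.37 and 0.40 (limma adjusted p = 0.00036 for each), to 76.5% and 77.1% of the scrambled mean with siCyclin K#1. PSMC6 was higher by 0.20 (SE 0.06, limma adjusted p = 0.028), which median-ratio scaling took to 0.12 (adjusted p = 0.25) and leaving out any scrambled library to an adjusted p of 0.066 to 0.10. PSMC1 and PSMC2 differed by 0.03 and −0.02 and were not called, and 75.8% of the exon bases of PSMC1 lie opposite exons of NRDE2.

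Among the ubiquitin receptors and scaffolds, PSMD4, a receptor that binds ubiquitin chains, stood at 37.2, 36.9 and 36.1 FPKM with scrambled siRNA, at 47.9, 44.0 and 46.2 with siCyclin K#1 and at 46.1, 44.3 and 44.1 with siCyclin K#2. The groups did not overlap, and it rose by 0.30 (SE 0.05, limma adjusted p = 0.0014). ADRM1, the other receptor, moved in opposite directions, from 60.7, 63.2 and 61.3 FPKM to 54.2, 52.7 and 54.0 with siCyclin K#1 and to 70.6, 72.2 and 71.0 with siCyclin K#2. Over both siRNAs it came to 0.00, and the direct difference between them was −0.41 (SE 0.03, limma adjusted p = 1.4e-05). The scaffold PSMD1 fell by 0.19 over both (limma adjusted p = 0.030, but 0.065 to 0.12 without any scrambled library and 0.054 without siCyclin K#1 library 3), and the scaffold PSMD2 fell with siCyclin K#2 (−0.33, limma adjusted p = 0.00041) and stood at 0.01 with siCyclin K#1.

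The lid held 8 members, of which PSMD7 was called over both siRNAs. PSMD7, the partner of the deubiquitinase PSMD14, stood at 31.0, 28.9 and 31.1 FPKM with scrambled siRNA, at 36.8, 38.6 and 34.1 with siCyclin K#1 and at 42.9, 45.4 and 45.9 with siCyclin K#2. It lay above the scrambled range in all 6 libraries, most so with siCyclin K#2, and rose by 0.41 (SE 0.10, limma adjusted p = 0.012). The call was lost with median-ratio scaling (0.33, adjusted p = 0.065) and without scrambled library 2 (0.38, adjusted p = 0.058), and 30.7% of its exon bases lie opposite AC009120.2. PSMD14 itself was lower by 0.11 with siCyclin K#1 (limma adjusted p = 0.035, but 0.051 to 0.11 without any scrambled library or siCyclin K#1 library 1 or 2) and higher by 0.20 with siCyclin K#2 (limma adjusted p = 0.0030).

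PSMD12, a scaffold subunit of the lid, had the largest difference between the siRNAs. It stood at 46.2, 46.7 and 47.5 FPKM with scrambled siRNA, at 24.4, 25.3 and 23.7 with siCyclin K#1 and at 43.3, 43.8 and 40.1 with siCyclin K#2. With siCyclin K#1 the libraries lay far below all others, at 52.3% of the scrambled mean (a fall of 0.93, SE 0.04, limma adjusted p = 4.3e-07). With siCyclin K#2 they were at 90.6% (a fall of 0.14, SE 0.04, limma adjusted p = 0.028, but 0.053 to 0.085 without any scrambled library or siCyclin K#2 library 3). The direct difference was −0.79 (SE 0.04, limma adjusted p = 3.4e-06). In the fit over both siRNAs, where the 2 siRNAs count as 1 group, PSMD12 was not called (−0.54, limma adjusted p = 0.11), whereas the mean of the contrasts gave an adjusted p of 4.7e-06. PSMD3 and PSMD11 were called with neither siRNA, but PSMD3 was called lower with siCyclin K#1 without scrambled library 2 or siCyclin K#1 library 1 (limma adjusted p = 0.031 and 0.017) and PSMD11 higher with siCyclin K#2 without scrambled library 3 (0.20 in place of 0.12, limma adjusted p = 0.0041). PSMD6 was lower by 0.23 with siCyclin K#1 (limma adjusted p = 0.015, but 0.052 without scrambled library 3). PSMD8 was higher with each siRNA (0.07 and 0.31, limma adjusted p = 0.041 and 2.3e-05). Its call with siCyclin K#1 was lost in other fits, and that with siCyclin K#2 was kept in all run at this threshold. PSMD13 was higher by 0.27 with siCyclin K#2 (limma adjusted p = 0.039), a call lost with median ratios, quantiles, eBayes without trend, the replicate block and no filter (adjusted p = 0.057 to 0.092), and without scrambled library 2 or 3, siCyclin K#1 library 3 or any siCyclin K#2 library (0.054 to 0.12).

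In the core, 2 of 7 alpha subunits were called over both siRNAs, and each of these fell. PSMA3 was at 51.9 ± 1.65 FPKM in the scrambled libraries, 36.1 ± 1.97 after siCyclin K#1 and 42.3 ± 0.867 after siCyclin K#2 (SD, n = 3), a fall of 0.41 (SE 0.08, limma adjusted p = 0.0046). PSMA2 fell by 0.22 (limma adjusted p = 0.028, but 0.066 to 0.11 without any scrambled library) on a row shared with C7orf25 and AC010132.3, and PSMA1 and PSMA6 (a row shared with KIAA0391 and AL121594.1) were called with neither siRNA. PSMA5 fell with siCyclin K#1, from 23.7 ± 0.544 to 19.9 ± 0.482 FPKM (−0.25, SE 0.04, limma adjusted p = 0.00063), and stood at 23.7 ± 0.694 with siCyclin K#2. PSMA7 was lower with each siRNA (−0.10 and −0.13, limma adjusted p = 0.014 and 0.0064). PSMA4 was higher with siCyclin K#2 (0.22, limma adjusted p = 0.027). Each of these calls of PSMA7 and PSMA4 was lost in at least 1 other fit. PSMB2, a non-catalytic beta subunit, stood at 46.9, 45.7 and 44.3 FPKM with scrambled siRNA, at 26.5, 27.7 and 23.2 with siCyclin K#1 and at 33.8, 40.4 and 34.4 with siCyclin K#2. The 3 groups did not overlap, with siCyclin K#1 lowest, and PSMB2 fell by 0.58 (SE 0.16, limma adjusted p = 0.019). Without scrambled library 1, 2 or 3 the adjusted p was 0.071, 0.065 or 0.055. The difference between the siRNAs was −0.49 (SE 0.08, limma adjusted p = 0.0023). PSMB3 fell by 0.25 (limma adjusted p = 0.0081, lost with quantile scaling). PSMB4 was called with siCyclin K#1 (−0.21), also lost with quantile scaling (−0.09, limma adjusted p = 0.085). PSMB1 was called with siCyclin K#2 (0.18).

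The assembly chaperones of the core work as the pairs PSMG1 with PSMG2 and PSMG3 with PSMG4. PSMG4 stood at 0.836, 0.892 and 0.932 FPKM with scrambled siRNA, at 1.19, 1.17 and 1.26 with siCyclin K#1 and at 1.45, 1.35 and 1.28 with siCyclin K#2, without overlap. It rose by 0.48 (SE 0.12, limma adjusted p = 0.011), on an estimated 294 to 484 reads per library. The call was lost with quantile scaling (0.35, adjusted p = 0.077) and without scrambled library 1 (0.44, adjusted p = 0.054). Of the 10418 exon bases of PSMG4, 1562 lie opposite exons of SLC22A23 or TUBB2B. Whether the counting used strand is not given, and whether reads of those genes entered this rise was not tested. PSMG3 fell by 0.45 (SE 0.11, limma adjusted p = 0.012, but 0.059 without scrambled library 2), from 17.9 ± 0.856 FPKM to 11.7 ± 0.821 and 14.7 ± 0.288. PSMG1 was at 17.6, 16.5 and 17.3 FPKM with scrambled siRNA, at 14.0, 13.0 and 14.3 with siCyclin K#1 and at 20.2, 17.9 and 18.1 with siCyclin K#2. It lay below the scrambled range with the first siRNA (a fall of 0.31, SE 0.06, limma adjusted p = 0.0023) and above it with the second (0.13, adjusted p = 0.13), and the direct difference was −0.44 (SE 0.06, limma adjusted p = 0.00061). PSMG2 was called with neither.

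POMP, the maturation factor of the core, fell with siCyclin K#1, from 99.7, 99.3 and 96.9 FPKM to 71.7, 66.6 and 69.3 (a fall of 0.51, SE 0.04, limma adjusted p = 7.3e-06). With siCyclin K#2 it was at 96.6, 94.0 and 90.1 FPKM, a difference of −0.08 (interval from −0.16 to 0.01). The direct difference was −0.44 (SE 0.04, limma adjusted p = 5.2e-05). PSMD5 and PSMD10, which chaperone the assembly of the base, were called with neither siRNA, but PSMD10 was called higher with siCyclin K#2 without scrambled library 3 (0.23 in place of 0.17, limma adjusted p = 0.0069).

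In the direct test between the siRNAs, 23 of the 47 members were called, 5 higher with siCyclin K#1 (10.6%, against 17.1% of all genes tested and 22.1% of well expressed genes) and 18 lower (38.3%, against 12.3% and 31.9%). Median ratios gave 3 higher and 23 lower calls, and quantiles 7 and 15. Under the fold-change rule no member was called between them, against 1.53% of all genes tested. At an unadjusted p under 0.05 in limma, without a fold limit, it was 28 members, given without a share over all genes. The 23 included 3 of the catalytic subunits (PSMB7, PSMB8 and PSMB9, each higher with siCyclin K#1), all 4 non-catalytic beta subunits (each lower) and 4 of the 8 lid subunits (each lower). With quantile scaling the difference was 0.01 for PSMB1, −0.00 for PSMB3 and −0.04 for PSMB4 (adjusted p = 0.92, 0.97 and 0.54 in limma), and of the non-catalytic beta subunits PSMB2 was called in every fit run at this threshold. PSMB8 lost its call with median ratios (0.17, limma adjusted p = 0.11) and without siCyclin K#1 library 1 or 3 or siCyclin K#2 library 2 or 3 (0.076 to 0.088).

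The genes around the proteasome were taken as a list of 33, ordered by role. Of them 2 rose and 10 fell over both siRNAs. Beside this count and those of its parts below stand 17% higher and 11.5% lower over all genes tested. Over the well expressed genes it was 24.6% and 22.5%. These shares are by adjusted p, and none is given here for the counts at an unadjusted p. NFE2L1 stood at 16.5, 17.1 and 15.3 FPKM with scrambled siRNA, at 39.4, 41.3 and 31.4 with siCyclin K#1 and at 45.8, 40.0 and 28.0 with siCyclin K#2. All 6 libraries were above the scrambled range, and it rose by 1.18 (SE 0.14, limma adjusted p = 0.00025). The list of 8 genes that holds NFE2L1, its activators and its partners had no other rise in limma, also at an unadjusted p under 0.05, and 2 genes fell (3 at an unadjusted p), the small MAF protein MAFG (−0.37) and the repressor BACH1 (−0.45). BACH1 was not called without any 1 of the scrambled libraries (adjusted p = 0.052 to 0.093), nor MAFG without scrambled library 2 (0.053). DDI2, the protease that cleaves the NFE2L1 protein into its active form, was lower by 0.78 with siCyclin K#1 and higher by 0.18 with siCyclin K#2 (limma adjusted p = 5.2e-06 and 0.031), on a row shared with RSC1A1, and the second of these calls was lost under both rescalings (adjusted p = 0.098 and 0.25).

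Of the 7 genes of interferon response and antigen presentation, none rose and 4 fell over both siRNAs in limma, and at an unadjusted p under 0.05 it was 0 and 5. By adjusted p, 11.5% of all genes tested and 22.5% of the well expressed ones were lower. IRF1, an interferon regulatory factor known to act on the inducible subunit genes, stood at 9.88, 9.94 and 9.97 FPKM with scrambled siRNA, at 5.63, 6.03 and 5.79 with siCyclin K#1 and at 5.34, 4.93 and 5.24 with siCyclin K#2. It lay well below the scrambled range in all 6 and fell by 0.85 (SE 0.08, limma adjusted p = 4.6e-05). B2M, the light chain of class I molecules, was at 68.1, 62.7 and 67.2 FPKM, at 16.1, 40.3 and 31.5 and at 39.0, 41.7 and 42.4, and fell by 0.98 (SE 0.28, limma adjusted p = 0.025, but 0.067 to 0.082 without any scrambled library). Its siCyclin K#1 libraries were spread more widely than the others. TAP2 and ERAP1 fell as well, by 0.50 and 0.31, and ERAP1 was not called without scrambled library 2 or 3 (adjusted p = 0.099 and 0.065).

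Among 8 shuttle factors and ubiquitin genes, 1 rose and 1 fell. UBQLN4, which carries ubiquitin conjugates to the proteasome, was at 19.9, 20.8 and 20.6 FPKM in the scrambled libraries, at 30.5, 30.8 and 28.9 after siCyclin K#1 and at 24.0, 22.9 and 24.4 after siCyclin K#2. The 3 groups were apart from each other, and it rose by 0.39 (limma adjusted p = 0.022, but 0.063 to 0.081 without any scrambled library). RPS27A, which encodes ubiquitin fused to a ribosomal protein, fell by 0.49, and the polyubiquitin gene UBB was not called (−0.03). Of 10 proteasome-associated proteins none rose over both siRNAs and 3 fell in limma, against 1 and 4 at an unadjusted p under 0.05. UCHL5, a deubiquitinase that docks on ADRM1, was at 13.9, 12.6 and 12.9 FPKM with scrambled siRNA, at 6.80, 6.92 and 7.09 with siCyclin K#1 and at 9.51, 9.22 and 9.26 with siCyclin K#2, a fall of 0.70 (SE 0.13, limma adjusted p = 0.0031). The deubiquitinase USP14 fell by 0.33 and ZFAND2A by 0.52.

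**Figure D5:**
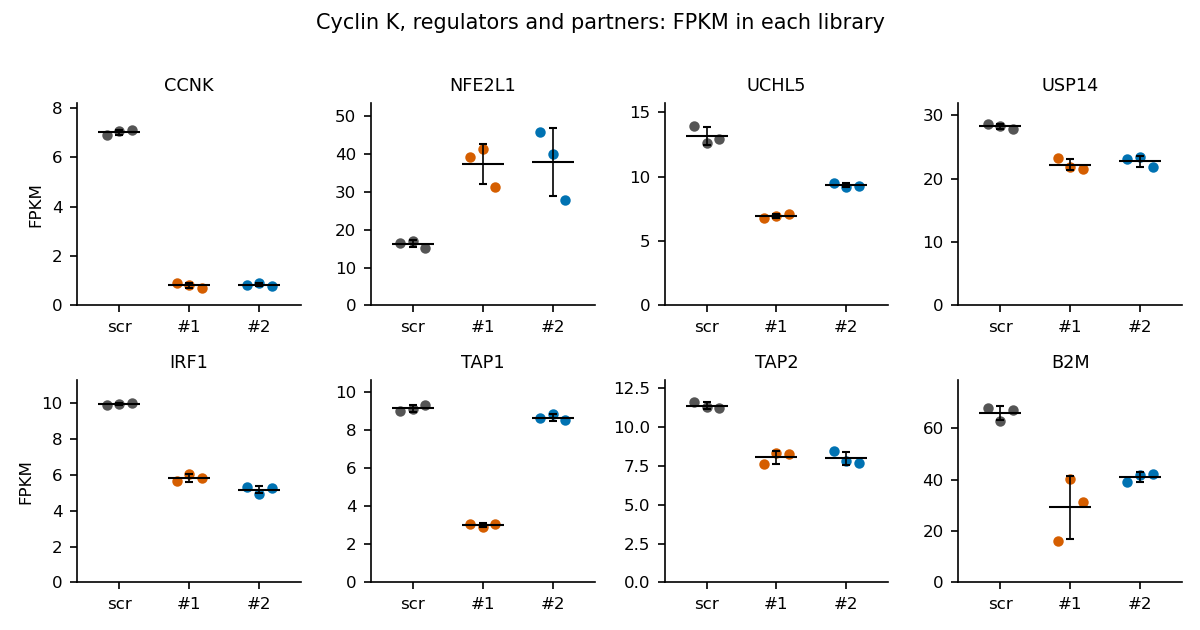
FPKM in each library of CCNK and of 7 genes that regulate or work with the proteasome, from an axis that starts at 0, with a point for each library and the mean ± SD (n = 3) in black. CCNK and IRF1 are low and NFE2L1 high in all 6 siCyclin K libraries, and TAP1 is low with siCyclin K#1.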

How the data were processed

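RNA-seq of 9 A549 libraries, 3 for each siRNA, was grouped by the sample labels. The authors sequenced paired reads and deposited FPKM values per feature from StringTie 1.3.3b. The aligner, the annotation release and the strandedness are not given in the sources used here. Coordinates were those of GRCh38, identical to GENCODE 29 for all 47 members. Rows of 1 gene were summed, and 5 member rows joined with other genes were kept.

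The 21048 genes that reached 0.1 FPKM in 3 or more libraries were tested on log2(FPKM + 0.1), which understates the change of low genes, with limma 3.58.1 in R 4.3.3 (eBayes with trend, Benjamini-Hochberg adjustment over all tested genes). Both siRNAs were fitted as 1 group of 6 against 3, and the single siRNAs and their direct contrast in a fit of 3 groups. On simulated data for the first of these, 180 of 200 genes changed by 1 on the log2 scale were recovered, with 15 false calls. The simulation gave both siRNAs the same change, whereas in the data many genes differ between the siRNAs, which widens the spread of this fit. Its rates therefore do not describe such genes. In an exact two-sided permutation test (6 against 3 libraries) the smallest possible p is 0.0119, and 3 against 3 cannot go below 0.1.

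The 47 members, the lists of related genes and the motifs were chosen with earlier results of these data known. Values in every library were given for the catalytic subunits, for the 5 largest rises and falls over both siRNAs with an adjusted p under 0.05, a mean of at least 1 FPKM and no overlap, for the 4 largest differences between the siRNAs, for CCNK, and for NFE2L1 with up to 3 of the largest rises and falls of the related list, some genes of which are not reported here. ADRM1, POMP, PSME3 and TAP1 were added after their values were seen. Depth came from low FPKM values of genes with a single transcript, of which 96.7% to 97.2% lay within 0.05 of a whole number of reads. Reads of PSMB10, PSMG4 and PSMB9 were estimated from FPKM, this depth and the joined length of all exons. For genes with several transcripts this was not checked, and it may overstate the reads. Alternatives were other pseudocounts, filters, scalings, variance models, groupings and thresholds, a replicate block, and leaving out each library. Promoters came from RefSeq, and scripts used pandas 2.3.3 and scipy 1.17.1.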

Additional observations from a re-analysis of the deposited data

Results flagged for a closer look

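When the siRNAs were tested against each other (limma, adjusted p under 0.05), 23 members had effects that differed between the siRNAs. Values are the log2 difference, siCyclin K#1 minus siCyclin K#2. Of the core, PSMA1 differed by −0.12, PSMA3 by −0.23, PSMA4 by −0.40 and PSMA5 by −0.25. In the beta ring PSMB1 differed by −0.12, PSMB2 by −0.49, PSMB3 by −0.11 and PSMB4 by −0.14, whereas the catalytic PSMB7, PSMB8 and PSMB9 were higher by 0.59, 0.25 and 0.26.

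In the 19S particle the ATPase PSMC1 differed by −0.17, the scaffold PSMD2 by 0.33 and the receptor ADRM1 by −0.41. Of the lid, PSMD7 differed by −0.29, PSMD8 by −0.23, PSMD12 by −0.79 and PSMD14 by −0.31. Of the chaperones, PSMD10 differed by −0.23, PSMG1 by −0.44, PSMG3 by −0.32 and POMP by −0.44. PSME2 was higher by 0.20. In 15 of the 23 the call was kept in every other fit run at the same threshold, and PSMA1, PSMB1, PSMB3, PSMB4, PSMB8, PSMB9, PSMC1 and PSMD10 lost it in at least 1.

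The fibroblast marker list, of 5 genes, summed to 2.18 to 2.62 FPKM with scrambled siRNA, to 15.4 to 17.3 with siCyclin K#1 and to 3.43 to 3.61 with siCyclin K#2, mostly from COL1A1, with 3 of the 5 under 0.1 on average, and its part in the differences between the siRNAs was not tested.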

How the results depend on the processing

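Of the 18 calls over both siRNAs, 10 were kept in every other fit run at the same threshold, each library left out included (PSMA3, PSMB9, PSMB10, PSMC3, PSMC4, PSMC5, PSMD4, PSME1, PSME2 and PSME4), as were 20 of 30 with siCyclin K#1 and 21 of 28 with siCyclin K#2. At an adjusted p under 0.01 the counts were 11 over both siRNAs and 15 between them. At a fold change over 2, 2 members were called over both, 3 with siCyclin K#1 and 3 with siCyclin K#2. Shares over all genes are not given here for either threshold. With the mean of the siRNA contrasts in the fit of 3 groups, 30 members were called over both (9 higher, 21 lower, against 24.9% and 18.2% of all genes tested), as the difference between the siRNAs then leaves the spread. A fit by eBayes without trend gave 15 calls over both, 26 with siCyclin K#1, 22 with siCyclin K#2 and 16 between them. It lost PSMA2, PSMC6 and PSMD1 over both, and PSMA7, PSMB8, PSMD8 and PSMD14 with siCyclin K#1. With siCyclin K#2 it lost PSMA2, PSMA4, PSMA7, PSMD1, PSMD12 and PSMD13. Leaving out 1 library gave 12 to 19 calls over both, 26 to 30 with siCyclin K#1, 23 to 28 with siCyclin K#2 and 17 to 24 between them. The fold-change rule gave 0 to 0 in each but siCyclin K#1, where it gave 0 to 1, the 1 being PSME3 without siCyclin K#1 library 3.

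Direction reversed for PSMD8 with siCyclin K#1 (−0.05, median ratios), PSMA7 with siCyclin K#1 (0.06, quantiles) and PSMB1 between the siRNAs (0.01, quantiles). Among the related genes it reversed with siCyclin K#1 for UBQLN2 (−0.01) and UBA1 (−0.10) with median ratios and VCP (0.04) with quantiles. Higher calls were 26.7% of the calls with siCyclin K#1 and 12.1% with median ratios (4 of 33), and 21.7% of those between the siRNAs, 11.5% with median ratios (3 of 26) and 31.8% with quantiles (7 of 22). Deviations from the group means showed little correlation between libraries with the same replicate number (mean −0.00586 over 9 pairs, −0.0711 to 0.0379). This cannot show whether such libraries were prepared together. With a replicate block 15 members were called over both, 29 with siCyclin K#1, 27 with siCyclin K#2 and 20 between them, and 0 by the fold-change rule. Depth limits PSMB10, PSMG4 and PSMB9, with an estimated 102 to 847 reads.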

Other observations

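The ATPase ring summed to 243 ± 2.41 FPKM in the scrambled libraries, 237 ± 5.78 after siCyclin K#1 and 245 ± 2.66 after siCyclin K#2 (SD, n = 3), although PSMC3 rose and PSMC4 and PSMC5 fell within it. The lid summed to 271 ± 6.66, 252 ± 4.05 and 303 ± 2.84, and the alpha ring to 272 ± 2.62, 239 ± 5.85 and 255 ± 5.16. All 47 members together took 0.780% ± 0.00917 of the FPKM of all reference genes in the scrambled libraries, 0.720% ± 0.00483 after siCyclin K#1 and 0.788% ± 0.00355 after siCyclin K#2.

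The genes of the members span from 2.36 kb (PSMB6) to 139 kb (PSMA1), with a median of 16.4 kb. Across the 47 members, which share the same 9 libraries, Spearman's rho of gene span with the log2 fold change over both siRNAs was 0.14, and across 3519 genes with a mean of at least 10 FPKM it was 0.20. In GENCODE 29, 10 members have named pseudogenes, 30 in all, of which 13 are copies of PSMC1, and the exons of 18 members share 20 bases or more with another gene, 17 of them with one on the opposite strand. The shared part was over 10% of the exon bases in 10 members. These were PSMA1 (same strand), PSMA2, PSMB8, PSMC1, PSMC5, PSMD1, PSMD7, ADRM1, PSMG2 and PSMG4. Whether reads of the overlapping genes entered their values was not tested.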
